A study of Mus musculus with 9 samples.

Results

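Messenger RNA at day 5 of differentiation was compared with messenger RNA at day 0 in C2C12 cells, a mouse myoblast line. The comparison used 6 of the 9 libraries of the study, chosen by day and paired by genotype. The day-5 group held 1 library each of Fkbp4 knockdown, Fkbp5 knockdown and control cells. The day-0 group held 1 library each of the same 3 genotypes. Per the labels, cells grew in DMEM with fetal bovine serum until day 0 and were then rinsed and moved to DMEM with insulin-transferrin-selenium, with DMEM with HS named for later changes of medium. The labels give neither the knockdown method nor what the control cells received. Day 5 and day 0 differed in medium and in time in culture together, and these cannot be told apart. Every genotype had 1 library per day, so the 3 genotypes stood in for replicates. The p-values therefore measure the spread of the day effect over 3 pairs of single libraries, and nothing in the labels says that these came from separate cultures of 1 genotype. Of the 47728 genes in the count files, 10918 had a mean CPM (reads of the gene scaled to a common library total) of at least 5 over the 6 libraries and were tested.

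C2C12 myoblasts divide in serum-rich medium, and on serum withdrawal they leave the cell cycle, elongate and fuse into myotubes that build sarcomeres. The myogenic regulatory factors Myod1, Myf5 and Myog bind E-boxes in muscle promoters, often beside sites for the MEF2 factors, while Id proteins block E-box binding and cyclin D1 with Cdk4 keeps cells dividing. Exit from the cycle depends on the inhibitor Cdkn1a and on the retinoblastoma protein. Many genes of replication and mitosis lie under the DREAM complex and E2F factors, which act through CHR and E2F sites. The CCAAT box, a further promoter site, was searched beside these.

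In all that follows, values of the 3 libraries of a day are normalised CPM in the order Fkbp4 knockdown, Fkbp5 knockdown and control. Fold changes are day 5 over day 0 on a log2 scale, given with the standard error of the fit. A bare value after a gene, with or without such an error, is this log2 fold change. A gene was called higher or lower where edgeR's quasi-likelihood F test, with genotype and day as terms, gave a Benjamini-Hochberg adjusted p under 0.05 over the 10918 genes, and rose and fell are said of called genes alone.

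The knocked-down genes were low in the libraries labelled for them. Fkbp4, a co-chaperone of Hsp90, had 24.5, 144 and 138 CPM at day 5, against 58.9, 254.9 and 241 CPM at day 0. The Fkbp4 knockdown library was the lowest of its day at both days, and Fkbp4 fell with day in each of the 3 pairs (log2 fold change -0.94 ± 0.11, edgeR adjusted p = 3.6e-04), although the libraries of the 2 days overlapped across genotypes. Fkbp5, a related co-chaperone, had 16.3, 4.61 and 14.7 CPM at day 5, against 23.9, 4.48 and 20.1 CPM at day 0. The Fkbp5 knockdown library was the lowest of its day at both days, and the change with day was not called (log2 fold change -0.40 ± 0.18, edgeR adjusted p = 0.096).

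The 6 libraries held between 3932372 and 4863068 counted reads, a range of 1.24-fold. The reads on mitochondrially encoded genes set libraries apart. They made up 5.01%, 10.1% and 4.01% of reads at day 5, against 1.78%, 2.57% and 1.801% at day 0. Within them, the neighbouring genes mt-Co2, mt-Atp8, mt-Atp6, mt-Co3, mt-Nd3 and mt-Nd4l held 0.672%, 3.32% and 0.00990% of reads at day 5, against 0.00456%, 0.00648% and 0.00442% at day 0. Of the 6 libraries, only the 2 knockdown libraries of day 5 held more than 0.01% of their reads on these 6 genes. The other 31 mitochondrial genes held 4.34%, 6.74% and 4.002% at day 5, against 1.77%, 2.56% and 1.797% at day 0, with every day-5 library above every day-0 library. In the Fkbp5 knockdown all 6 genes were high at day 5, and in the Fkbp4 knockdown mt-Co2, mt-Atp8 and mt-Atp6 were. A copy of this stretch lies on chromosome 1: 100% of the 31-base words of mt-Co2, and 7.47% of those of mt-Atp8, occur in another annotated gene. The 7 annotated copies on chromosome 1 together held 0.0122%, 0.0175% and 0.0152% of reads at day 5, against 0.00707%, 0.00966% and 0.00714% at day 0. How reads that fit both places were counted is not given in the sources used here, and its part in these values was not tested.

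**Figure D1:**
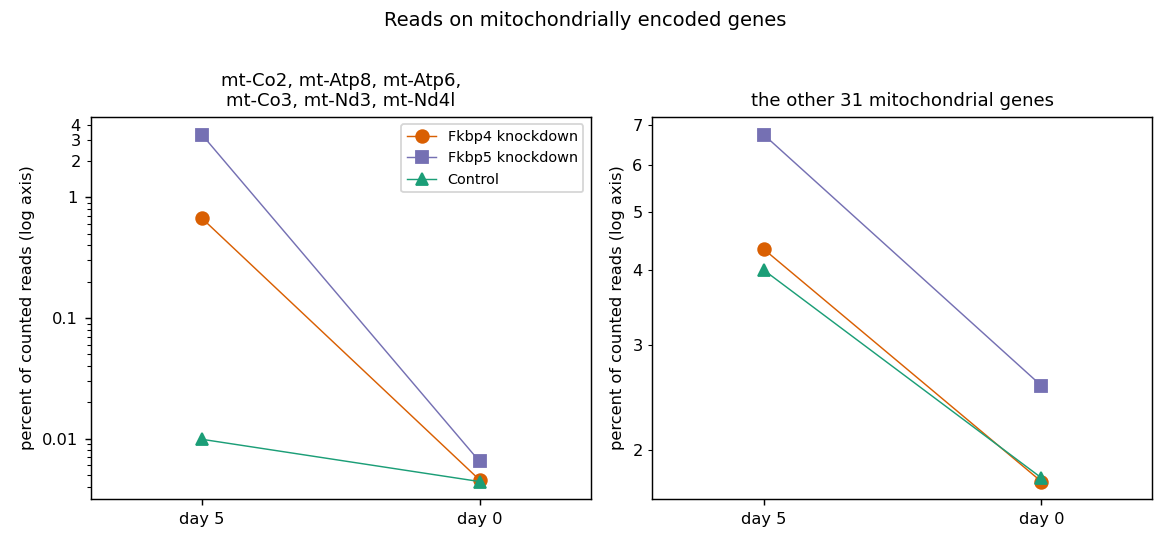
Share of counted reads, in percent on a log axis, on 6 neighbouring mitochondrial genes (left) and on the other 31 mitochondrial genes (right), for day 5 and day 0; each point is 1 library and lines join the 2 days of a genotype. The 6 genes held 3.32% of reads in the Fkbp5 knockdown and 0.672% in the Fkbp4 knockdown at day 5, against at most 0.00990% in the control at day 5 and in the day-0 libraries, while the other 31 were higher at day 5 in all 3 genotypes.

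The cells carried the markers of their labelled type at both days. All 10 listed markers of skeletal myoblasts and myotubes were tested, and all 10 rose, among them Des, the muscle intermediate filament, with 4025, 4077 and 3924 CPM at day 5, against 834, 1034 and 995 CPM at day 0 (log2 fold change 2.08 ± 0.11, edgeR adjusted p = 1.4e-05). Of the markers of other lineages, none of the 6 immune, 6 endothelial or 6 neuronal and Schwann cell markers passed the filter, and 8 of the 18 had no read. Of 8 smooth muscle markers 4 were tested. Des, Acta2 and Smtn rose (2.08, 1.23 and 1.09), genes that skeletal myotubes also use, while Tagln was not called (0.22). Of the untested 4, Myh11, the defining myosin, had 3 reads at day 5, against 1 at day 0. Cnn1 had 4 against 24, Lmod1 had 56 against 34 and Myocd had 7 against 1. Of 9 osteoblast and chondrocyte markers 2 were tested and 0 were called. The adipocyte markers Adipoq, Plin1, Cidec, Retn and Lep had 0 reads in the 6 libraries, and of the 3 that were tested Lpl rose (1.48) while Cebpa and Pparg fell (-1.94 and -0.78). Fabp4, the remaining adipocyte marker, was under the filter with 15 reads at day 5, against 4 at day 0. Of the 6 listed markers of fibroblasts 4 were tested. Pi16, Dpt and Ly6a rose (4.88, 4.03 and 1.68), 2 of the 4 with a day-0 mean under 5 CPM, while Pdgfra was not called (-0.40, edgeR adjusted p = 0.19). The summed level of the 6 listed was 673, 1202 and 748 CPM at day 5, against 181, 346 and 265 CPM at day 0. Of the untested 2, Thy1 had 0 reads at day 5 and Dpp4 had 1. In these bulk samples, fewer cells of a type and less RNA per cell cannot be told apart.

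Of the 10918 genes, 3372 (30.9%) were higher and 3261 (29.9%) were lower at day 5, which is 60.8% called in either direction. At an unadjusted p under 0.05 there were 7118. The change had the same sign in all 3 pairs for 6609 of the 6633 called genes, among them all 287 called genes picked by the naming rules. Libraries of the 2 days did not overlap in 3295 genes (30.2%) with day 5 above and in 3121 (28.6%) with day 5 below. Changes of at least 2-fold were called in 1192 genes (10.9%) that rose and 1118 (10.2%) that fell. At 4-fold the counts were 454 (4.16%) and 324 (2.97%), and at 8-fold 262 (2.4%) and 69 (0.632%), so the rises reached further than the falls. The counts of members below are to be read against these shares. The median change over all genes tested was 0.02.

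Promoters of 6 genes are shown here, 3 that rose and 3 that fell, because their windows hold the letters of the sites named above. Each is the 250 bases before the RefSeq start of the gene on GRCm38.p6, read 5′ to 3′ on the gene's strand, and capitals mark the motifs searched on both strands. The motifs were the 6-base E-boxes CAGCTG and CACCTG, the MEF2 site CTANNNNTA, the CHR element TTTGAA, the CCAAT box CCAAT and the E2F sites TTCCCGCC and TTTGGCGC. Tnnt2 is at chr1:135836084-135836333, plus strand, Cav3 at chr6:112459255-112459504, plus strand, Mylpf at chr7:127211358-127211607, plus strand, Ccnb2 at chr9:70421555-70421804, minus strand, Top2a at chr11:99024190-99024439, minus strand, and Mcm5 at chr8:75109259-75109508, plus strand.
Tnnt2: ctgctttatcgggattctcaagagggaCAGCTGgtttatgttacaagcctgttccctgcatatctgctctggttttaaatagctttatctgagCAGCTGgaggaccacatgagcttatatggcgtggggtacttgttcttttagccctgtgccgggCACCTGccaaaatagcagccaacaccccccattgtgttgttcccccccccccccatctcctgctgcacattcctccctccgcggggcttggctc
Cav3: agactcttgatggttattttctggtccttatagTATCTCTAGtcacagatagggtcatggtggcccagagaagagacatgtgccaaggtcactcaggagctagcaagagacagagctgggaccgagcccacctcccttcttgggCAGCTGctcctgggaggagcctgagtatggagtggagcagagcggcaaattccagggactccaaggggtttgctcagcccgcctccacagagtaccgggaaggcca
Mylpf: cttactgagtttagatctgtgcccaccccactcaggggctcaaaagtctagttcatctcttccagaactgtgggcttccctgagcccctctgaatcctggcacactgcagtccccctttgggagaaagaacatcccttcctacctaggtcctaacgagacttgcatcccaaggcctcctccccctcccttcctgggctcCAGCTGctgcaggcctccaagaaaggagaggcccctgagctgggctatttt
Ccnb2: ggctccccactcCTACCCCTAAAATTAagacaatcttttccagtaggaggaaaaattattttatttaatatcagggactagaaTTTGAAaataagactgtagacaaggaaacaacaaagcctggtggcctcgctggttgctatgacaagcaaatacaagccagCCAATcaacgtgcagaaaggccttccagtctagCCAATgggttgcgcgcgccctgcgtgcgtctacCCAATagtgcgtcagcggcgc
Top2a: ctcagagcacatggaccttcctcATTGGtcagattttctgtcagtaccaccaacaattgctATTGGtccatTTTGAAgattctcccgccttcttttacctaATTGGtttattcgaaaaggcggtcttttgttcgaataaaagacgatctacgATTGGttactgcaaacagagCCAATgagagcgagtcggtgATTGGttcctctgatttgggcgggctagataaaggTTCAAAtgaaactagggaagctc
Mcm5: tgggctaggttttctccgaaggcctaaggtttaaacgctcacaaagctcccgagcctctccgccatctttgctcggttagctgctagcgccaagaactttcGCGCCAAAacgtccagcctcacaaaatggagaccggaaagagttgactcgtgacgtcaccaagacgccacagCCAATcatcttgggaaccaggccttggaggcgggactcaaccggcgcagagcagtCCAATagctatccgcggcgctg

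Tnnt2, the cardiac form of troponin T that embryonic skeletal muscle also uses, had CAGCTG at -223 and -157 and CACCTG at -94, counted from the start of the gene to the first base of the match. Cav3, the muscle caveolin, had a MEF2 match at -217 and CAGCTG at -106, and Mylpf, the fast regulatory light chain of myosin, had CAGCTG at -51. Ccnb2, a mitotic cyclin, had CCAAT at -87, -54 and -21, CHR letters at -167 and 2 overlapping MEF2 matches near the far end of the window. Top2a, the topoisomerase that separates sister chromatids, had 6 CCAAT boxes and CHR letters at -179 and -23. Mcm5, a subunit of the replicative helicase, had the E2F letters TTTGGCGC at -149 on the opposite strand and CCAAT at -77 and -22. Over the 8257 tested genes with a RefSeq promoter, CAGCTG was in 11.5%, CACCTG in 13.6%, the MEF2 letters in 12.4%, CHR in 9.74%, CCAAT in 36.9%, TTCCCGCC in 3.75% and TTTGGCGC in 0.920%. Apart from the E2F sites, these letters are thus common. A match, to an E2F site too, is a description of the window only. Promoters were matched for 298 of the 454 genes that rose at least 4-fold and for 241 of the 324 that fell at least 4-fold, under 80% of each set, so the comparison of motif shares between sets was void and is not given.

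The myogenic transcription factors differed in how far they moved between the days, and Myog and Mef2c were already detected at a low level at day 0. Myod1, which commits cells to the muscle lineage, had 101, 104 and 107 CPM at day 5, against 73.6, 67.9 and 69.7 CPM at day 0, and Myf5, its close relative, had 73.7, 84.0 and 70.6 CPM at day 5, against 61.6, 44.5 and 46.0 CPM at day 0. Both were higher in all 3 day-5 libraries, by less than 2-fold (0.56 ± 0.09 and 0.59 ± 0.13, edgeR adjusted p = 0.0013 and 0.0077). Myog, which drives the terminal program, had 253, 238 and 278 CPM at day 5, against 30.8, 11.3 and 14.8 CPM at day 0 (log2 fold change 3.80 ± 0.26, edgeR adjusted p = 3.2e-05). Mef2c, a partner of the myogenic factors, had 172, 74.6 and 204 CPM at day 5, against 9.22, 7.90 and 5.97 CPM at day 0 (log2 fold change 4.24 ± 0.28, edgeR adjusted p = 2.9e-05). In both genes the lowest day-5 library lay above the highest day-0 library, and the Fkbp5 knockdown had the lowest Mef2c of day 5. Of the 17 listed factors tested, 15 rose, 1 fell and 1 was not called, with a median of 1.65. Among them, Rbm24, a muscle splicing factor, rose by 5.47 and Smyd1, a muscle histone methyltransferase, by 4.63. Eya1, a co-activator of homeobox factors in muscle precursors, was the one that fell (-1.12 ± 0.21, edgeR adjusted p = 0.0034).

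**Figure D2:**
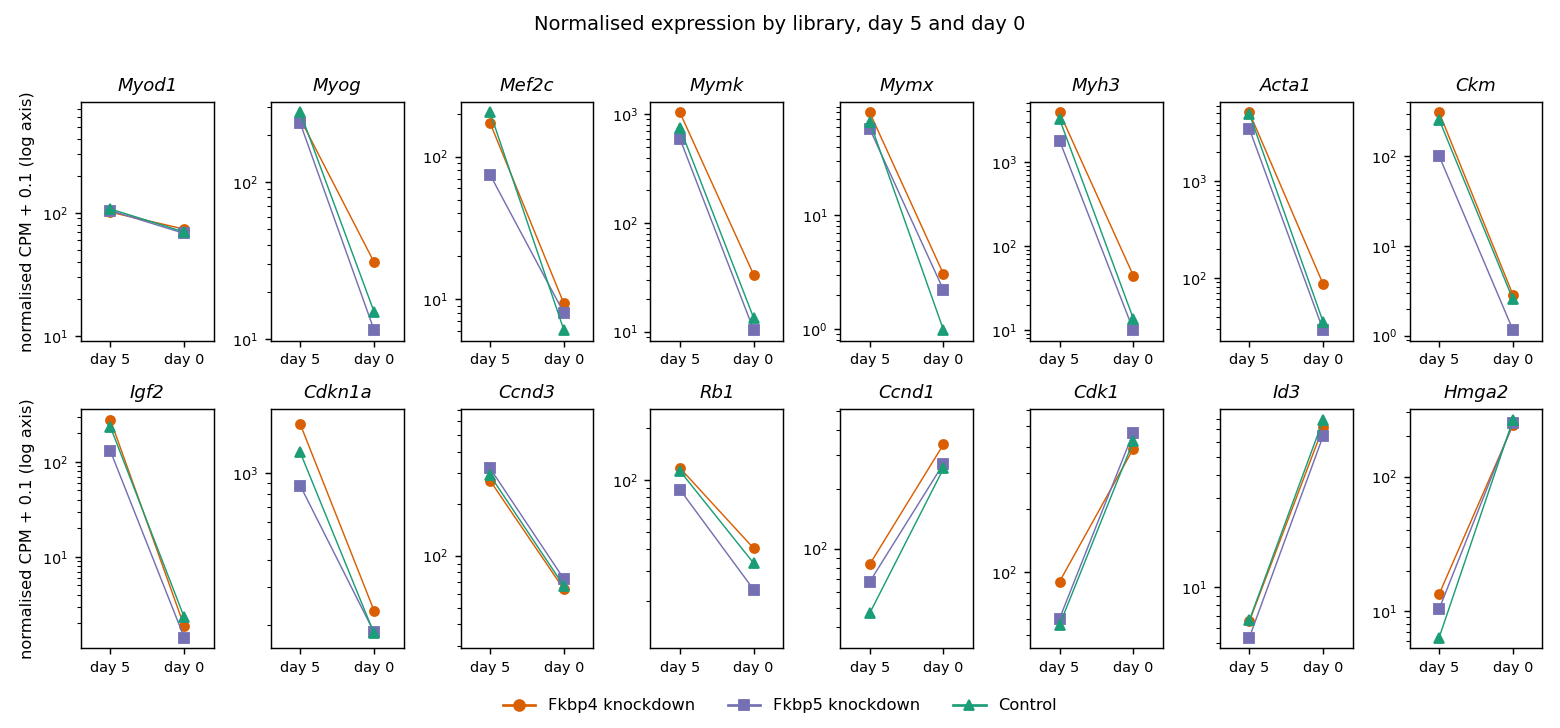
Normalised CPM plus 0.1 on log axes for 16 genes, day 5 left of day 0; each point is 1 library and lines join the 2 days of a genotype. Myog, Mef2c, the fusion genes Mymk and Mymx, the muscle genes Myh3, Acta1 and Ckm, and Igf2, Cdkn1a, Ccnd3 and Rb1 were higher at day 5 in all 3 genotypes, Ccnd1, Cdk1, Id3 and Hmga2 were lower, and Myod1 moved by less than 2-fold.

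Genes of the dividing myoblast and of the progenitor state mostly fell. Of 20 tested, 12 fell and 4 rose (median -0.81). Id3, an inhibitor of E-box binding, had 6.45, 5.26 and 6.53 CPM at day 5, against 71.8, 64.5 and 78.5 CPM at day 0 (log2 fold change -3.55 ± 0.11, edgeR adjusted p = 3.3e-06). Hmga2, a chromatin protein of embryonic and dividing cells, had 13.3, 10.3 and 6.29 CPM at day 5, against 241, 249 and 262 CPM at day 0 (log2 fold change -4.65 ± 0.20, edgeR adjusted p = 6.8e-06). Both were low in every day-5 library and showed little spread among genotypes at day 0. Id1, a relative of Id3, and Hmga1 also fell (-1.47 ± 0.16 and -2.78 ± 0.30), although 62.1% of the 31-base words of Hmga1 occur in another gene and its counts are uncertain. The members that rose were Ncam1, an adhesion molecule of myotubes (2.98 ± 0.09), Spry1 and Spry2, inhibitors of growth factor signalling (2.78 ± 0.24 and 0.71 ± 0.08), and Cd34 (1.10 ± 0.12). Pax7, which marks satellite cells, had 21 reads in the day-5 libraries together, against 8 in those of day 0, and was under the filter.

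Of the listed fusion genes the 2 fusogens rose the most. Mymk, which encodes the fusogen myomaker, had 1044, 599.6 and 753 CPM at day 5, against 33.4, 10.3 and 13.3 CPM at day 0 (log2 fold change 5.49 ± 0.21, edgeR adjusted p = 4.5e-06). Mymx, which encodes its partner myomixer, had 80.0, 57.5 and 66.5 CPM at day 5, against 2.94, 2.11 and 0.885 CPM at day 0 (log2 fold change 5.09 ± 0.22, edgeR adjusted p = 6.5e-06). The day-5 libraries of both lay far above those of day 0, and the Fkbp5 knockdown was the lowest of day 5 in both. Dysf, a protein of membrane repair, rose by 3.44 ± 0.13, and Cdh2 and Cdh15, cadherins of myoblasts, by 1.16 ± 0.09 and 0.28 ± 0.09. Of the 19 listed fusion genes tested, 6 rose, 6 fell and 7 were not called, with a median of -0.07. Those that fell were Jam2 and Kirrel, adhesion proteins of the immunoglobulin family, Dock1 and Dock5, which activate Rac, Neo1, a receptor, and Ptger4, a prostaglandin receptor, with values between -0.93 and -0.35. Without the Fkbp4 knockdown pair 3 of these 6 were still called. Dock1 and Cdh15 lost their call without any one of the 3 pairs, Jam2 without the Fkbp4 knockdown or control pair and Neo1 without the Fkbp4 knockdown pair.

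The thick and thin filaments had the largest median fold changes of the lists. All 16 thick filament genes tested of 19 listed rose, as did 15 of 16 tested thin filament genes and all 22 tested genes of the Z-disc and titin. The medians were 6.46, 5.80 and 3.75. Of these members 9, 5 and 9 had a day-0 mean under 5 CPM and so passed the filter only through their day-5 level. Their counts are for that reason a description and not a test. Among the lists described below, the insulin-like growth factor and mitochondrially encoded lists had 3 such members each. The Notch, non-collagen matrix, autophagy and nuclear respiratory chain lists had 2 each. The endplate, collagen, immediate early, p53, splicing and FK506-binding lists had 1 each. Of the lists described above, the myogenic factor, fusion and skeletal marker lists also had 1 each, Mymx in the fusion list and Ckm among the markers. The same limit holds for all these members, some of which are named above or below. In turn, 4 replication and 2 mitosis genes had a day-5 mean under 5 CPM. Acta1, skeletal alpha-actin, had 5105, 3462 and 4942 CPM at day 5, against 86.3, 29.0 and 35.2 CPM at day 0 (log2 fold change 6.62 ± 0.29, edgeR adjusted p = 6.6e-06). Myh3, the embryonic myosin heavy chain, had 3897, 1807 and 3264 CPM at day 5, against 44.7, 10.0 and 13.7 CPM at day 0 (log2 fold change 7.22 ± 0.32, edgeR adjusted p = 6.9e-06). Mylpf had 6404, 5481 and 6596 CPM at day 5, against 142, 51.9 and 55.3 CPM at day 0 (log2 fold change 6.36 ± 0.32, edgeR adjusted p = 1.1e-05). In all 3 genes the lowest day-5 library was more than 10 times the highest day-0 library, and the Fkbp5 knockdown gave the lowest level of day 5.

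The same separation of the days held in other sarcomere genes. Tnnt2 had 1419, 1002 and 1244 CPM at day 5, against 63.0, 69.5 and 59.3 CPM at day 0 (log2 fold change 4.25 ± 0.16, edgeR adjusted p = 4.5e-06), and Tnnt3, the fast troponin T, had 1133, 547 and 964 CPM at day 5, against 17.9, 6.06 and 7.52 CPM at day 0 (log2 fold change 6.44 ± 0.21, edgeR adjusted p = 3.4e-06). Neb, the giant ruler of the thin filament, rose by 6.23 ± 0.19, and Lmod2, which nucleates actin, by 7.33 ± 0.27. Actn2, the muscle alpha-actinin of the Z-disc, had 164, 38.2 and 105 CPM at day 5, against 0.392, 0.790 and 0 CPM at day 0 (log2 fold change 8.06 ± 0.38, edgeR adjusted p = 8.9e-06). The Fkbp5 knockdown had the lowest Actn2 of day 5. At day 0 the 3 libraries held 2, 3 and 0 reads, too few to order them. Myoz2, a calcineurin-binding protein of the Z-disc, rose by 7.19 ± 0.24, and Tcap, the titin cap, had 179 reads at day 5, against 1 at day 0. Tpm3, a tropomyosin of slow fibres and of non-muscle cells, was the only thin filament member that fell (-0.76 ± 0.10, edgeR adjusted p = 5.1e-04).

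The skeletal myosin heavy chain genes lie side by side on chromosome 11 of GRCm38, from Myh3 at chr11:67078300-67102291 to Myh8, and all 5 that were tested rose. Myh4, the fast IIb chain, had 376, 19.96 and 234 CPM at day 5, against 0.196, 0 and 0.664 CPM at day 0, with 2805 reads at day 5, against 4 at day 0 (log2 fold change 9.43 ± 0.26, edgeR adjusted p = 3.2e-06). Myh8, the perinatal chain, had 87.5, 14.04 and 74.9 CPM at day 5, against 0.392, 0.263 and 0.221 CPM at day 0 (log2 fold change 7.57 ± 0.26, edgeR adjusted p = 4.1e-06). Myh1, the fast IIx chain, rose by 6.56 ± 0.24 and Myh2, the fast IIa chain, by 6.78 ± 0.51. The Fkbp5 knockdown stood far below the other libraries of day 5 in Myh4 and Myh8. These genes are near-identical in parts: 11.1% of the 31-base words of Myh3, 18.6% of Myh8, 30.4% of Myh4, 34.5% of Myh2 and 42.9% of Myh1 occur in another gene, and the split of reads among them is uncertain.

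Genes that couple the nerve signal to contraction rose as well. In excitation-contraction coupling 18 of 20 tested genes rose and 1 fell (median 3.82), 6 of them with a day-0 mean under 5 CPM. Casq2, a calcium store protein, had 783, 455 and 712 CPM at day 5, against 13.5, 5.53 and 4.204 CPM at day 0 (log2 fold change 6.43 ± 0.27, edgeR adjusted p = 6.3e-06). Atp2a1, the calcium pump of the sarcoplasmic reticulum, had 785, 213 and 677 CPM at day 5, against 12.2, 4.48 and 5.09 CPM at day 0 (log2 fold change 6.25 ± 0.24, edgeR adjusted p = 4.9e-06). Every day-5 library lay above every day-0 library in both, and Atp2a1 was lowest in the Fkbp5 knockdown at day 5. Cacna1s, the voltage sensor, rose by 6.45 ± 0.23 and Casq1, the fast calsequestrin, by 7.02 ± 0.47. Fkbp1a, the FK506-binding protein that sits on the ryanodine receptor and is also found in all cells, was the member that fell (-0.68 ± 0.10, edgeR adjusted p = 8.7e-04).

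At the endplate all 11 genes tested rose (median 2.14). Chrng, the fetal gamma subunit of the acetylcholine receptor, had 630.0, 317 and 442 CPM at day 5, against 14.9, 5.79 and 8.85 CPM at day 0 (log2 fold change 5.57 ± 0.12, edgeR adjusted p = 2.5e-06). Its log2 ratios were 5.36, 5.67 and 5.57 in the 3 pairs, a narrow range. Lrp4, the receptor of agrin, rose by 3.30 ± 0.10, Erbb3, a neuregulin receptor, by 3.24 ± 0.13, and Colq, which anchors acetylcholinesterase, by 4.61 ± 0.40. Chrne, the adult subunit that replaces Chrng after birth, stayed under the filter with 35 reads in the day-5 libraries together, against 0 in those of day 0.

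Among membrane proteins and the dystrophin complex 20 of 23 tested genes rose and 3 fell (median 1.84), 4 of them, Cav3 included, with a day-0 mean under 5 CPM. Cav3 had 44.1, 16.0 and 42.5 CPM at day 5, against 0.196, 0 and 0 CPM at day 0 with 1 read in the day-0 libraries together (log2 fold change 8.44 ± 0.38, edgeR adjusted p = 7.2e-06), a ratio of day 5 over day 0 whose counting interval ran from 81.5 to 18059. Trim72, a protein of membrane repair, rose by 6.61 ± 0.18, and Sgca, alpha-sarcoglycan, by 4.01 ± 0.11. The 3 that fell were the general caveolae genes Cav1, Cav2 and Cavin1 (-0.44, -2.21 and -0.30), of which Cavin1 lost its call without the Fkbp5 knockdown pair or without the control pair. Cav2 had 41.7, 48.2 and 31.9 CPM at day 5, against 158, 243 and 167 CPM at day 0, so the day-5 libraries lay well below those of day 0 (edgeR adjusted p = 1.2e-05).

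In muscle energy metabolism 15 of 18 tested genes rose and 2 fell (median 1.59), 7 with a day-0 mean under 5 CPM. Ckm, the muscle creatine kinase, had 308, 101 and 257 CPM at day 5, against 2.75, 1.05 and 2.43 CPM at day 0 (log2 fold change 6.72 ± 0.13, edgeR adjusted p = 2.5e-06). Mb, myoglobin, had 77.4, 317 and 198 CPM at day 5, against 2.55, 0.790 and 1.11 CPM at day 0 (log2 fold change 6.80 ± 0.42, edgeR adjusted p = 2.2e-05). Both were higher in every day-5 library, but the order of genotypes differed, with the Fkbp5 knockdown lowest for Ckm and highest for Mb. Pgam2, a glycolytic enzyme of muscle, rose by 6.50 ± 0.32, and Cox8b, a muscle subunit of cytochrome c oxidase, by 6.44 ± 0.55 with 3 reads at day 0. Ldha, lactate dehydrogenase A, and Slc25a4, the muscle nucleotide translocator, fell (-0.87 ± 0.10 and -0.36 ± 0.09).

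**Figure D3:**
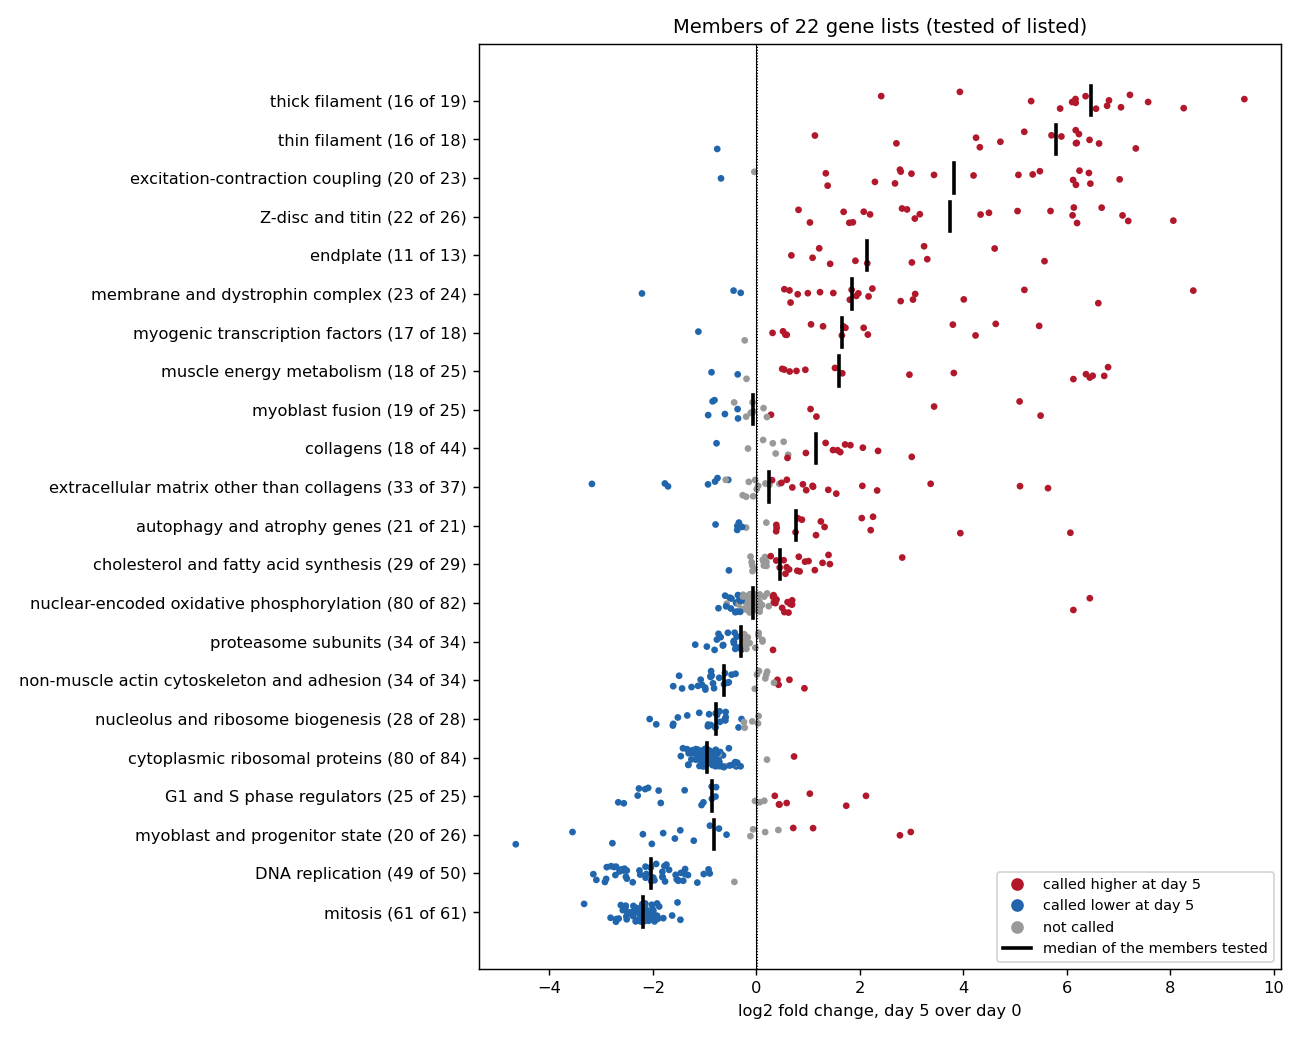
Log2 fold change, day 5 over day 0, of the tested members of 22 gene lists, with the number tested of those listed in brackets; each point is 1 gene, coloured by its call, and black ticks are medians. The filament lists have the largest medians, with values of 6.46 for the thick filament and 5.80 for the thin filament, and replication and mitosis lie lowest, with medians of -2.03 and -2.19.

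Muscle forms of a protein gained on their general relatives. In 18 of the 19 pairs in which both forms were tested, the muscle form had the larger log2 fold change, and in 9 of these the muscle form rose while the general form fell. Acta1 gained on Actb, cytoplasmic beta-actin, by a log2 ratio of 6.95, 7.85 and 8.04 in the Fkbp4 knockdown, Fkbp5 knockdown and control pairs, and Actb itself had 1538, 1403 and 1422 CPM at day 5, against 3238, 2751 and 2693 CPM at day 0. Tpm2 gained on Tpm4, a non-muscle tropomyosin, by 4.59, 3.85 and 4.50. Flnc gained on Flna, the filamins, by 2.99, 2.15 and 2.90, and Actn2 gained on Actn1 by 8.29, 5.41 and 8.57. The 3 pairs kept the same direction in each of these switches. The smallest gain was in the Fkbp5 knockdown for Tpm2, Flnc and Actn2, the last resting on few day-0 reads. Actn3 gained on Actn4, the other alpha-actinin pair, by 3.53, 3.37 and 3.27, with the smallest gain in the control.

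Some general forms rose too. Atp2a2, the widely used calcium pump, rose by 1.38 ± 0.16, less than Atp2a1 (6.25 ± 0.24). Myh9, a non-muscle myosin heavy chain, was not called, with 1287, 1212 and 1185 CPM at day 5, against 1480.0, 984 and 1235 CPM at day 0 (log2 fold change 0.01 ± 0.12, edgeR adjusted p = 0.94). The libraries of the 2 days overlapped, and the sign of this value turned under 6 of the alternatives tried. Both forms of the nucleotide translocator, Slc25a4 and Slc25a5, fell. The exception among the pairs was the cadherins, where Cdh2 (1.16 ± 0.09) rose more than Cdh15 (0.28 ± 0.09).

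**Figure D4:**
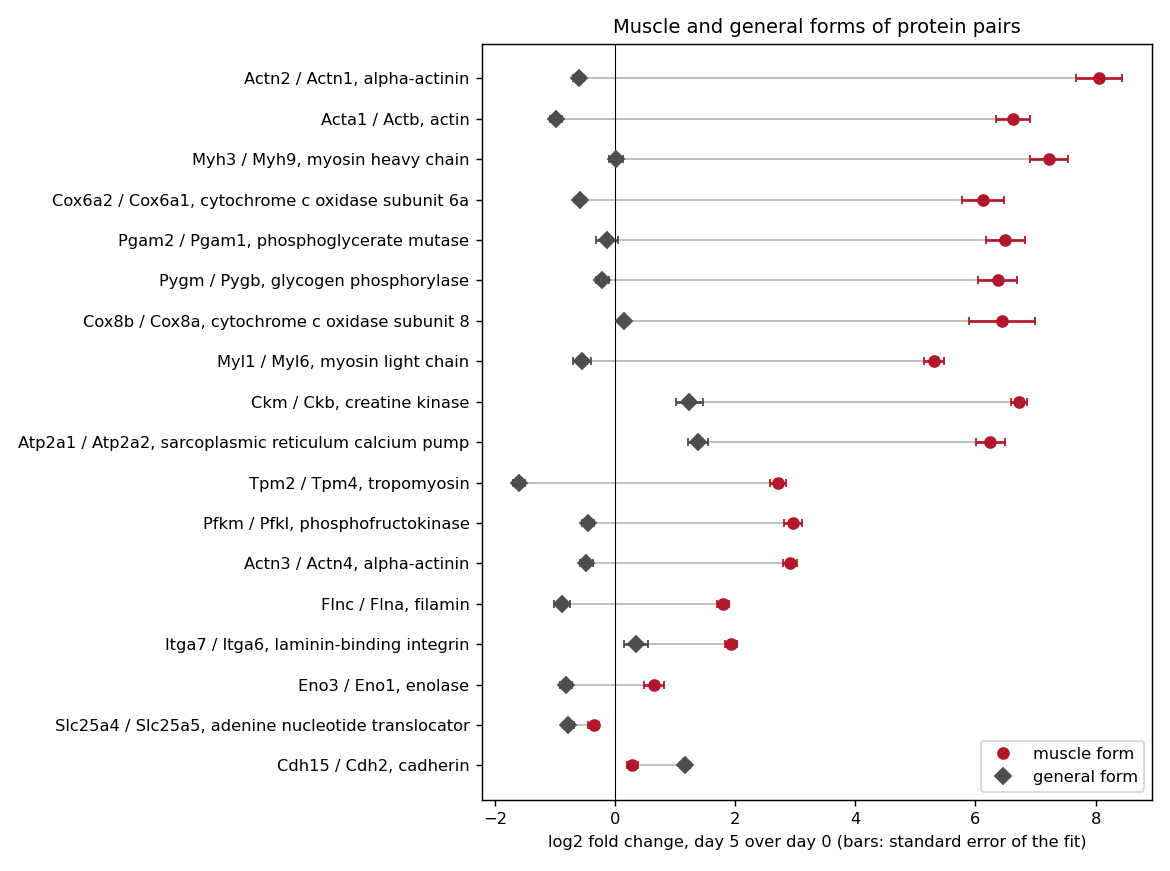
Log2 fold change, day 5 over day 0, of the muscle form (circles) and the general form (diamonds) of 18 of the 19 protein pairs; bars are standard errors of the fit over 3 pairs of libraries. The muscle form lies right of the general form in each pair drawn, by up to 8.66 for Actn2 over Actn1, except for Cdh15 over Cdh2.

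Genes of cell division fell almost without exception. None of the 49 tested genes of DNA replication rose and 48 fell, with a median of -2.03. The 1 not called was Gins3, a subunit of the replisome complex GINS (-0.42 ± 0.19, edgeR adjusted p = 0.097). All 61 genes of mitosis fell, with a median of -2.19 and a range from -3.33 to -1.47. Cdk1, the kinase that drives mitosis, had 90.1, 59.9 and 55.8 CPM at day 5, against 390.5, 466 and 424 CPM at day 0 (log2 fold change -2.66 ± 0.18, edgeR adjusted p = 3.1e-05). Mcm5 had 24.7, 17.3 and 18.1 CPM at day 5, against 163, 128 and 157 CPM at day 0 (log2 fold change -2.90 ± 0.11, edgeR adjusted p = 4.7e-06). The groups did not overlap in either gene, and both kept measurable levels at day 5. Ccnb2 and Top2a, whose promoters are shown above, fell too (-2.02 ± 0.19 and -2.17 ± 0.11).

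The largest falls in replication were Tk1, thymidine kinase, at -3.15 ± 0.17, Gins1 at -3.09 ± 0.27 and Orc1, a subunit of the origin recognition complex, at -2.93 ± 0.33. In mitosis they were Mybl2, a subunit of the activator form of the DREAM machinery, at -3.33 ± 0.23, Sgo1, which protects centromeric cohesion, at -2.82 ± 0.17, Bub1, a checkpoint kinase, at -2.71 ± 0.18, and Birc5, survivin, at -2.70 ± 0.16. The median log2 ratio over the mitosis genes was -1.85 in the Fkbp4 knockdown pair, -2.52 in the Fkbp5 knockdown pair and -2.35 in the control pair. The shallowest fall was thus in the Fkbp4 knockdown pair.

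Regulators of G1 did not move as a block. Of 25 tested, 15 fell and 7 rose (median -0.86). Ccnd1, cyclin D1, had 83.2, 67.8 and 46.9 CPM at day 5, against 339, 270.1 and 255.3 CPM at day 0 (log2 fold change -2.15 ± 0.11, edgeR adjusted p = 1.3e-05), and its partner Cdk4, the kinase named in the title of the study, had 245, 301 and 249.7 CPM at day 5, against 670.3, 741 and 661 CPM at day 0 (log2 fold change -1.38 ± 0.09, edgeR adjusted p = 2.8e-05). The day-5 libraries of both lay below those of day 0. The steepest falls of the list were in Ccne2, an S phase cyclin (-2.67 ± 0.14), E2f7, a repressive E2F (-2.56 ± 0.16), Ccna2, cyclin A2 (-2.29 ± 0.13), and Cks1b, a subunit of cyclin-dependent kinases (-2.27 ± 0.12). Ccnd3, the D cyclin of differentiated muscle, had 272, 321 and 292 CPM at day 5, against 63.8, 73.2 and 66.6 CPM at day 0 (log2 fold change 2.12 ± 0.08, edgeR adjusted p = 5.1e-06). Rb1, the retinoblastoma protein, had 118, 88.2 and 113 CPM at day 5, against 40.2, 23.2 and 33.0 CPM at day 0 (log2 fold change 1.74 ± 0.11, edgeR adjusted p = 2.3e-05). In Ccnd3 and Rb1 the groups did not overlap. Ccnd2, E2f2, E2f4, Rbl2 and Tfdp2 also rose, by between 0.36 and 1.03, and Tfdp2 lost its call without any one of the 3 pairs and E2f4 without the Fkbp4 knockdown pair.

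Among the inhibitors of cyclin-dependent kinases, Cdkn1a, p21, had 1683, 878 and 1248 CPM at day 5, against 234, 186 and 184 CPM at day 0 (log2 fold change 2.62 ± 0.14, edgeR adjusted p = 1.5e-05). Its level at day 5 was lowest in the Fkbp5 knockdown and still above every day-0 library. Cdkn2d fell (-1.002 ± 0.16), and Cdkn1b and Cdkn2c were not called. Cdkn1c, p57, was under the filter with 57 reads in the day-5 libraries together, against 7 in those of day 0.

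Genes that make ribosomes fell as well. Of 28 genes of the nucleolus and of ribosome biogenesis, 23 fell and 0 rose (median -0.77). Npm1, nucleophosmin, had 441, 493 and 436 CPM at day 5, against 1648, 1893 and 1698 CPM at day 0 (log2 fold change -1.93 ± 0.10, edgeR adjusted p = 1.0e-05). Nop56, Fbl and Nhp2, which work in the modification of ribosomal RNA, fell (-2.06 ± 0.09, -1.61 ± 0.13 and -1.60 ± 0.11). Of 80 cytoplasmic ribosomal protein genes, 75 fell and 1 rose (median -0.95), but 55 of the 80 share over 20% of their words with other genes and have uncertain counts; of the 25 that remain, 25 fell. Rpl39 had 325, 406 and 337 CPM at day 5, against 648, 1179 and 939 CPM at day 0, and shares 9.85% of its words (log2 fold change -1.34 ± 0.13, edgeR adjusted p = 1.5e-04). The member that rose was Rpl41 (0.73 ± 0.12), which shares 23.2%. Of 34 proteasome subunits 19 fell and 1 rose (median -0.30), with Psma7, a core subunit, at -1.18 ± 0.10. The subunit that rose, Psmc3 (0.32 ± 0.11), lost its call without the Fkbp4 knockdown pair or the control pair.

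The general actin cytoskeleton mostly fell. Of 34 genes of non-muscle actin and adhesion, 22 fell and 5 rose (median -0.62). Tpm4 had 366, 488 and 421 CPM at day 5, against 1200.0, 1324 and 1334 CPM at day 0 (log2 fold change -1.60 ± 0.10, edgeR adjusted p = 2.7e-05), Tagln2 and Cnn2, which bind actin, fell (-1.49 ± 0.11 and -1.43 ± 0.08), and so did Capg, a capping protein (-1.25 ± 0.08). The members that rose were genes of attachment to the matrix: Vcl, vinculin, by 0.64 ± 0.09, Pxn, paxillin, by 0.93 ± 0.08, Tln1, talin, by 0.41 ± 0.09, and the integrins Itgb1 and Itga5 by 0.37 ± 0.09 and 0.43 ± 0.11. Tln1 and Itgb1 lost their call without the control pair and Itga5 without the Fkbp5 knockdown pair. Itga7, the laminin receptor of muscle, which was in the membrane list, rose by 1.93 ± 0.10.

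Matrix genes moved in both directions. Of 33 matrix genes other than collagens 15 rose and 7 fell (median 0.25), and of 18 collagens 11 rose and 1 fell (median 1.15). Dcn, decorin, had 349, 795 and 623 CPM at day 5, against 12.6, 27.6 and 11.9 CPM at day 0 (log2 fold change 5.10 ± 0.19, edgeR adjusted p = 4.5e-06), and Postn, periostin, had 54.0, 150.0 and 120.4 CPM at day 5, against 2.35, 2.37 and 1.33 CPM at day 0 (log2 fold change 5.64 ± 0.27, edgeR adjusted p = 8.6e-06). In both the Fkbp4 knockdown had the lowest level of day 5, above every day-0 library. Col1a1 rose by 2.06 ± 0.17, Col6a2 by 2.35 ± 0.16, Col4a5 by 1.82 ± 0.11 and Col27a1 by 3.00 ± 0.32, and Lama4, a laminin chain, by 3.37 ± 0.33. Fbln1, fibulin 1, fell the most (-3.18 ± 0.23), then Loxl3, a lysyl oxidase relative (-1.77 ± 0.14), and Nid1, a basement membrane protein (-1.71 ± 0.15), while Lamb1, Timp1, Thbs2, Tnc and Col16a1 fell by less than 2-fold. The fibroblast markers given above moved with these genes, with 3 of the 4 tested rising and Thy1 and Dpp4 near 0, and their part in the result was not tested.

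The insulin-like growth factor axis changed at its ligands. Igf2, a growth factor of fetal muscle, had 276, 129.6 and 233 CPM at day 5, against 1.77, 1.32 and 2.21 CPM at day 0 (log2 fold change 6.91 ± 0.15, edgeR adjusted p = 2.5e-06). Igf1 had 15.5, 23.2 and 32.2 CPM at day 5, against 0.785, 1.58 and 2.43 CPM at day 0 (log2 fold change 3.89 ± 0.23, edgeR adjusted p = 1.8e-05). Both were higher in every day-5 library, and the log2 ratios of Igf2 were 6.96, 6.20 and 6.45 in the 3 pairs, although 63.1% of its words occur in another annotated gene. Igfbp5, a binding protein of muscle, rose by 2.75 ± 0.10, while Igfbp2, Igfbp7 and Igfbp6 fell (-2.00, -0.83 and -0.44), the last losing its call without the Fkbp5 knockdown pair or the control pair. The signalling adaptors Irs1 and Irs2 fell (-1.42 ± 0.12 and -1.09 ± 0.24), and the receptors Igf1r and Insr were not called. In all, 6 of 14 tested members rose and 6 fell.

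H19, a non-coding RNA imprinted together with Igf2, had 5585, 5365 and 5792 CPM at day 5, against 409, 244 and 299.6 CPM at day 0 (log2 fold change 4.17 ± 0.17, edgeR adjusted p = 5.3e-06). On chromosome 7 H19 and Igf2 lie near Tnni2, the fast troponin I, and Tnnt3. Of the 7 genes tested between Tnni2 at chr7:142441808-142444410 and Igf2 at chr7:142650766-142666816, 6 rose, namely Tnni2, Lsp1, Prr33, Tnnt3, H19 and Igf2, by 6.19, 1.33, 2.43, 6.44, 4.17 and 6.91. Mrpl23, a mitochondrial ribosomal protein between Tnnt3 and H19, was not called (-0.11 ± 0.10, edgeR adjusted p = 0.38). Prr33 overlaps Lsp1 and Tnnt3 on the other strand, and since the library kit does not mark strand, reads of the overlaps cannot be told apart. These neighbours were chosen after their values were seen.

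Signalling lists gave mixed counts. Of 11 Notch pathway genes 7 rose and 3 fell, with the ligand Dll1 at 2.71 ± 0.22 and the target Heyl at 2.49 ± 0.31, and with Lfng, a modifier of Notch, Hes1, a target, and Rbpj, the DNA-binding partner of Notch, at -1.18 ± 0.17, -0.60 ± 0.09 and -0.65 ± 0.10. Without the Fkbp4 knockdown pair 4 Notch genes rose. Of 23 immediate early genes 10 rose and 5 fell. Fosl1, a Fos relative of dividing cells, had 11.4, 4.82 and 5.56 CPM at day 5, against 124, 79.5 and 81.2 CPM at day 0 (log2 fold change -3.72 ± 0.14, edgeR adjusted p = 4.5e-06), and Dusp4, Dusp5 and Dusp6, phosphatases induced by ERK, fell as well (-2.21 ± 0.10, -2.44 ± 0.14 and -1.19 ± 0.14). Egr3, a transcription factor of muscle spindles, rose by 2.18 ± 0.33. Of 17 p53 targets 10 rose and 2 fell. Eda2r, of the tumour necrosis factor receptor family, had 365, 328 and 380.3 CPM at day 5, against 67.7, 65.6 and 73.5 CPM at day 0 (log2 fold change 2.38 ± 0.09, edgeR adjusted p = 4.3e-06), and Gadd45a and Fas rose by 2.08 ± 0.16 and 1.92 ± 0.40, while Bax and Mdm2 fell (-0.73 ± 0.10 and -0.35 ± 0.11), Mdm2 not without the Fkbp5 knockdown pair or the control pair.

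RNA-processing genes also split. Of 22 splicing regulators 13 fell and 6 rose (median -0.50). Srsf3 and Hnrnpa1, general factors, fell (-1.70 ± 0.11 and -1.49 ± 0.11), as did Mbnl3, a muscleblind protein (-1.84 ± 0.18). Rbfox1, a splicing factor of muscle and neurons, had 0 reads at day 0 and 146 at day 5, at least 48.9-fold higher when 3 reads over the day-0 group are taken as the floor. Rbm20, which governs titin splicing, Celf2, Qk, Rbfox2 and Celf1 rose by between 0.49 and 1.37. Of 13 long non-coding RNAs 4 rose and 6 fell, with Neat1 and Malat1 of nuclear bodies at 1.89 ± 0.15 and 1.57 ± 0.16.

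In autophagy and atrophy 14 of 21 genes rose and 5 fell (median 0.76). Trim63 and Fbxo32, the ubiquitin ligases of muscle wasting, both rose. Trim63 had 26.0, 14.04 and 24.9 CPM at day 5, against 0.196, 0.527 and 0.221 CPM at day 0. Fbxo32 had 80.8, 80.7 and 94.5 CPM at day 5, against 16.1, 13.2 and 25.0 CPM at day 0. Both were higher in all 3 day-5 libraries (6.07 ± 0.38 and 2.26 ± 0.14), and Map1lc3a, an autophagosome protein, rose by 2.21 ± 0.10. Bnip3l, Bnip3, Atg5, Gabarapl1 and Ctsl fell, with values between -0.79 and -0.27, and 3 of these 5 falls were called without the control pair, Bnip3 and Gabarapl1 being lost. Bnip3 also lost its call without the Fkbp5 knockdown pair and Gabarapl1 without the Fkbp4 knockdown pair. Of 23 genes of endoplasmic reticulum and integrated stress 7 rose and 7 fell, with Herpud1, of protein degradation, at 1.67 ± 0.09 and Asns, asparagine synthetase, at -0.79 ± 0.19.

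Most genes of lipid synthesis were higher. Of 29 genes of cholesterol and fatty acid synthesis 17 rose, 6 of them at least 2-fold, and 1 fell (median 0.45). Scd1, which makes monounsaturated fatty acids, had 2948, 5256 and 4125 CPM at day 5, against 519, 583 and 601 CPM at day 0 (log2 fold change 2.82 ± 0.15, edgeR adjusted p = 1.3e-05), and its relative Scd2 rose by 1.395 ± 0.11. Tm7sf2 and Dhcr7, enzymes of sterol reduction, rose by 1.42 ± 0.12 and 1.28 ± 0.22, and Stard4, a sterol carrier, fell (-0.53 ± 0.09). Respiratory chain genes of the nucleus showed little common change: 15 of 80 rose and 16 fell (median -0.07), with Cox6a2, a muscle subunit, at 6.13 ± 0.34 and Ndufa4 at -0.73 ± 0.11. The count that fell was 9 without the control pair and 27 with upper-quartile scaling. Of the 13 proteins encoded by the mitochondrial genome 12 rose. However, 6 of the 13 lie in the stretch described above, whose reads were high in knockdown libraries of day 5 alone. The days did not overlap in 8 of the 13, and 7 share over 20% of their words with another gene. mt-Cytb, outside the 6-gene stretch, had 7034, 12224 and 8153 CPM at day 5, against 3472, 6044 and 3645 CPM at day 0 (log2 fold change 1.07 ± 0.10, edgeR adjusted p = 1.4e-04), and mt-Co2, inside it, had 4669, 11647 and 33.6 CPM at day 5, against 13.5, 22.1 and 14.2 CPM at day 0, so its rise stood in the 2 knockdown libraries of day 5 (log2 fold change 7.03 ± 1.81, edgeR adjusted p = 0.013), and the call was lost without either of these pairs.

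The FK506-binding proteins and partners of Hsp90, the family of the 2 targets, split into 8 that rose and 11 that fell of 26 tested. Hspb7 and Hspb2, small heat shock proteins of muscle, rose by 5.66 ± 0.32 and 2.44 ± 0.11. Fkbp14, Fkbp7 and Fkbp9, which reside in the endoplasmic reticulum, rose by 1.07 ± 0.09, 0.57 ± 0.11 and 0.39 ± 0.08, and Ptges3, the Hsp90 co-chaperone p23, fell (-0.90 ± 0.10). Without the control pair 5 members rose, Fkbp9 no longer among them. Of 10 tested interferon and antigen presentation genes 7 rose and 0 fell, with Stat2 at 0.91 ± 0.12 and H2-K1, a class I heavy chain, at 0.74 ± 0.12. Of 65 replication-dependent histone genes 2 were tested, and the messages of this class mostly lack poly(A) tails, while the libraries were made from polyadenylated RNA. Hist1h1c and Hist1h2bc both rose, by 2.49 ± 0.13 and 1.98 ± 0.11.

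By fold change, the 12 largest rises, leaving out predicted genes and pseudogenes, were Myh4, Cilp, Rbfox1, Fsd2, Nppc, Cav3, Mybpc1, Actn2, Adamts16, Adh1, Scara5 and Myh8. They were chosen for that size, so the values are a description. Nppc, C-type natriuretic peptide, had 0 reads at day 0 and 10.3, 9.87 and 12.6 CPM at day 5, at least 48.6-fold higher on the same floor. Its libraries of day 5 were close to each other. Cilp, a matrix protein of cartilage, had 24.7, 62.1 and 82.4 CPM at day 5, against 0, 0.263 and 0 CPM at day 0 with 1 read at day 0, a ratio with a counting interval from 133 to 29372, and was highest in the control. Mybpc1, slow myosin-binding protein C, had 107, 23.5 and 89.7 CPM at day 5, against 0.196, 0.263 and 0.221 CPM at day 0, and Scara5, a ferritin receptor, had 55.5, 14.3 and 28.3 CPM at day 5, against 0.196, 0 and 0.221 CPM at day 0. Fitted values of genes with so few day-0 reads depend on the prior count of the fit.

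The 12 largest falls by the same rule were Itgb7, Car8, Prl2c2, Csn3, Prl2c3, Serpinb2, Igsf5, Ngfr, Usp43, Hhip, Cxcl5 and Nefl. Itgb7, an integrin of leukocytes, had 0.215, 0.219 and 0.242 CPM at day 5, against 55.7, 61.9 and 30.98 CPM at day 0 with 3 reads at day 5. Hhip, an antagonist of hedgehog ligands, had 1.29, 0.658 and 0.725 CPM at day 5, against 36.1, 32.4 and 33.6 CPM at day 0 (log2 fold change -5.21 ± 0.23, edgeR adjusted p = 7.2e-06), and Ngfr, the low-affinity neurotrophin receptor, had 0.430, 0.877 and 0.725 CPM at day 5, against 46.1, 16.3 and 27.0 CPM at day 0 (log2 fold change -5.38 ± 0.35, edgeR adjusted p = 2.8e-05). In all 3 genes the 2 days were far apart in every genotype. Prl2c3, a proliferin of the prolactin family, had 10.1, 11.2 and 0.725 CPM at day 5, against 442, 579 and 360.4 CPM at day 0, but 67.0% of its words and 89.8% of those of Prl2c2 occur in another gene.

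By change in CPM, which favours long and abundant transcripts, the largest gains were mt-Co1, Mylpf, mt-Co2, H19, Igfbp5, Acta1, mt-Cytb and Scd1. The largest losses were Spp1, Eef1a1, Tpt1, Lgals1, Rplp0, Vim, Rack1 and Ftl1. Spp1, osteopontin, had 466, 645 and 677 CPM at day 5, against 5558, 6438 and 7947 CPM at day 0 (log2 fold change -3.48 ± 0.12, edgeR adjusted p = 3.7e-06). Vim, vimentin, the intermediate filament of mesenchymal cells, had 4112, 4261 and 3787 CPM at day 5, against 6749, 7318 and 5959.5 CPM at day 0 (log2 fold change -0.72 ± 0.10, edgeR adjusted p = 7.5e-04), and Lgals1, galectin 1, fell too (-0.87 ± 0.11). The day-5 libraries of the 3 genes all lay below those of day 0. Eef1a1, an elongation factor (-0.84 ± 0.11), and Ftl1, ferritin light chain (-2.65 ± 0.42), share 51.5% and 64.1% of their words with other genes.

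Day 5 was also set against day 3, with the same day-5 libraries, in a fit over all 9. In this fit 443 genes (4.06%) were higher and 280 (2.56%) lower at day 5 than at day 3. Without the Fkbp4 knockdown libraries the counts were 186 and 120, and without the control libraries 127 and 41. Myog had 30.8, 11.3 and 14.8 CPM at day 0, 324, 153 and 358 CPM at day 3 and 253, 238 and 278 CPM at day 5. The change between the last 2 days was not called (-0.03, edgeR adjusted p = 0.96). Nor was it in Mymk, H19 and Cdkn1a (0.40, 0.00 and 0.07, edgeR adjusted p = 0.19, 0.99 and 0.78). In the Fkbp5 knockdown Myog was lower than in the other genotypes at day 3 and near them at day 5.

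Many contractile genes were higher at day 5 than at day 3. They were 13 of 16 thick filament, 13 of 16 thin filament, 10 of 22 Z-disc and titin and 13 of 20 excitation-contraction genes. None of the tested members of these lists was lower. Of the tested members, in the same order, 9, 5, 9 and 6 had a day-0 mean under 5 CPM. They passed the filter only through the day-5 level that is compared here, so these counts too are a description and not a test. Among the neighbouring myosins the embryonic form rose least between day 3 and day 5. Myh3 was higher by 1.13, Myh2 by 2.58, Myh8 by 2.59, Myh1 by 2.71 and Myh4 by 4.52 on the log2 scale, with edgeR adjusted p values of 0.019, 0.0039, 5.7e-04, 6.6e-04 and 7.0e-06. Myh4 had 0.196, 0 and 0.664 CPM at day 0, 14.9, 2.05 and 8.996 CPM at day 3 and 376, 19.96 and 234 CPM at day 5. Mef2c, unlike Myog, was also higher at day 5 than at day 3 (1.25, edgeR adjusted p = 0.01).

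**Figure D5:**
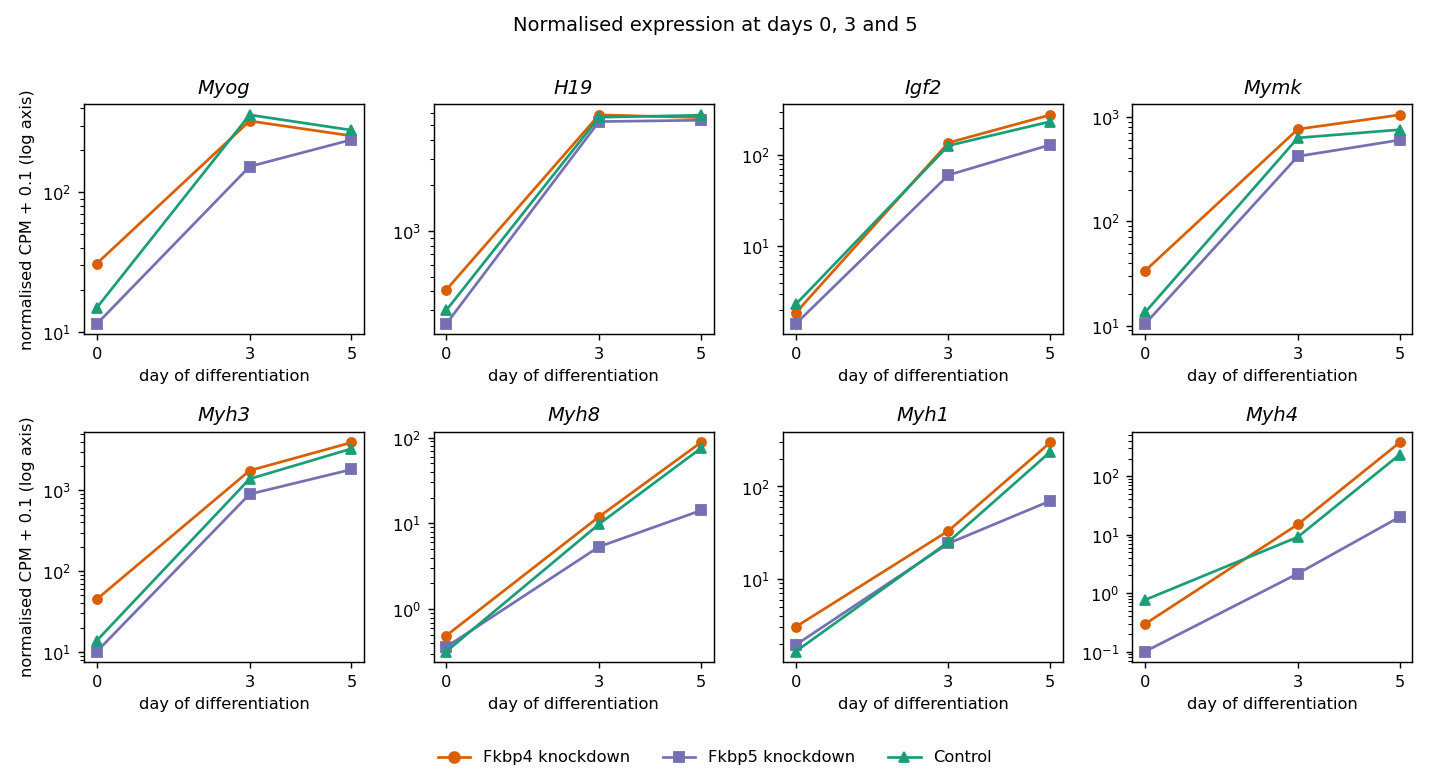
Normalised CPM plus 0.1 on log axes at days 0, 3 and 5 for 8 genes; each point is 1 library and lines join a genotype. Between day 3 and day 5 the changes in Myog and H19 were not called, and Myog went up in the Fkbp5 knockdown alone. Myh8, Myh1 and Myh4 rose further, Myh4 with 376, 19.96 and 234 CPM at day 5, against 14.9, 2.05 and 8.996 CPM at day 3, in the Fkbp4 knockdown, Fkbp5 knockdown and control.

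Some genes were highest at day 3. Of 29 lipid synthesis genes, 15 were lower at day 5 than at day 3 and 1 was higher, although 17 were higher at day 5 than at day 0. Hmgcs1, which commits carbon to sterol synthesis, had 195, 204 and 229 CPM at day 0, 686, 474 and 499 CPM at day 3 and 408, 267 and 432 CPM at day 5 (day 5 over day 3 -0.60, edgeR adjusted p = 0.045). Of the 11 Notch pathway genes 6 were lower at day 5 than at day 3. Heyl had 6.08, 2.90 and 3.98 CPM at day 0, 45.8, 59.0 and 50.2 CPM at day 3 and 19.8, 32.7 and 23.9 CPM at day 5 (day 5 over day 3 -1.03, edgeR adjusted p = 0.014), and Notch3, a receptor, had 75.3, 67.7 and 65.5 CPM at day 0, 224, 261 and 169 CPM at day 3 and 116, 144 and 109 CPM at day 5 (-0.82, edgeR adjusted p = 0.0039). All 3 genotypes had their highest value of both genes at day 3. Of the mitosis genes 5 of 61 and of the replication genes 1 of 49 were lower at day 5 than at day 3.

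The size of the change varied among genotypes for the muscle genes. Among the 2310 genes called and changed at least 2-fold, the median range of the log2 ratio over the 3 pairs was 0.543, and the median absolute ratio was 1.52 in the Fkbp4 knockdown pair, 1.57 in the Fkbp5 knockdown pair and 1.61 in the control pair. Over the tested thick filament genes the median log2 ratio was 5.79, 5.25 and 6.79. The summed level of the listed thick filament genes was 17527, 11226 and 15648 CPM at day 5, against 332, 141 and 139 CPM at day 0. The Fkbp5 knockdown was the lowest library of day 5, and the Fkbp4 knockdown the highest of day 0. With 1 library per genotype and day, a difference between genotypes in the day effect could not be tested, and the Fkbp5 knockdown library of day 5 is also the one with the most mitochondrial reads, whose part in these levels was not tested.

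Outside the genes with shared sequence, the widest ranges of the log2 ratio among pairs, in genes with at least 100 reads in a library, belonged to Dhrs7c, Actn2, Ptn, Rybp, Ccn2 and C1qtnf3, a set chosen after the values were seen. Dhrs7c, a reticulum enzyme of muscle, had 62.5, 10.5 and 41.1 CPM at day 5, against 0.392, 0.790 and 0 CPM at day 0, and was called (log2 fold change 6.62 ± 0.51, edgeR adjusted p = 5.8e-05). Dhrs7c and Actn2 each had 2, 3 and 0 reads at day 0, so their ranges rest on few reads. C1qtnf3, a secreted protein, had 428, 1756 and 826 CPM at day 5, against 56.5, 29.0 and 34.7 CPM at day 0, and was called, with its highest day-5 level in the Fkbp5 knockdown (log2 fold change 4.43 ± 0.54, edgeR adjusted p = 4.0e-04). Ptn, Rybp and Ccn2 were not called, and their pairs went in different directions.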

How the data were processed

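Polyadenylated RNA of C2C12 cells was sequenced on a HiSeq2500 from TruSeq RNA v2 libraries, a kit that does not mark strand, per the labels' protocols. The submitters' processing notes name CASAVA 1.8, HISAT2 2.0.2, Subread, featureCounts 1.4.6 and the build mm10. The deposited values are the authors' raw read counts per Ensembl gene, with no normalization. GENCODE M21 gave symbols and positions for 47309 of 47728 genes, and the rest held at most 0.0188% of reads of a library.

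Counts of the 6 libraries were filtered at a mean of 5 CPM, scaled by TMM and tested with edgeR 4.0.16 (R 4.3.3) by a quasi-likelihood F test with genotype as the block and day as the term. The fit had 2 residual degrees of freedom and a common biological coefficient of variation of 0.121. The fitting script was also tested on simulated data, drawn from the means, library totals and common dispersion of these data. The standard error is the size of the fold change over the square root of F. Genotype pairs the samples: deviations from the day means correlated within pairs at 0.321, 0.351 and 0.133. Log2 ratios of single pairs used a prior of 2 reads. Ratios of summed reads carry exact 95% intervals, which cover counting error only, and a day with 0 reads was set to a floor of 3 reads over its libraries (in 1 library 3 reads are 0.617 to 0.763 CPM). Sequence sharing is the percentage of a gene's 31-base words in GENCODE transcripts that another gene holds. Promoters are RefSeq's on GRCm38.p6.

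Named genes were the targets and core regulators, the 12 largest fold changes and 8 largest CPM changes each way, up to 4 called members of each list plus those against its majority, paralogue pairs, and the 6 widest ranges among genotypes. A second set of wide ranges, in nuclear genes with little shared sequence, was added after the values were seen, as were single members quoted to illustrate a list. A few genes and 1 paralogue pair that enter the counts are not reported here by name. Members and lists were chosen with earlier results of these data known. Alternatives changed the scaling (RLE, totals, upper quartile), the filter, the tool (DESeq2 1.42.0, limma-voom 3.58.1), the block, the libraries and the genes; leaving out genes with shared sequence was chosen after seeing the data.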

Additional observations from a re-analysis of the deposited data

Results flagged for a closer look

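Of the 12 genes picked for the widest range of change among the 3 genotypes, 8 moved in opposite directions between the days. These are single pairs of libraries, so the difference between genotypes was not tested. Each value is the log2 ratio of day 5 over day 0.

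Ptn, pleiotrophin, a growth factor, had 1.796 in the Fkbp4 knockdown, -1.385 in the Fkbp5 knockdown and 0.074 in the control. Rybp, a subunit of a Polycomb complex, had -0.215, 2.344 and -0.658 in the same order. Ccn2, a matrix-associated growth factor, had -2.084, 0.909 and -0.939. Ptn had 101, 34.0 and 44.7 CPM at day 5, against 28.8, 89.5 and 42.5 CPM at day 0. Rybp had 38.5, 67.3 and 17.6 CPM at day 5, against 44.7, 12.9 and 28.1 CPM at day 0. Ccn2 had 14.2, 121 and 51.3 CPM at day 5, against 61.6, 64.5 and 98.7 CPM at day 0. The Fkbp5 knockdown was thus the pair that went against the others in Rybp and Ccn2.

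The other 5 are pseudogenes or predicted genes that share most of their sequence with ribosomal protein genes or other copies. Rps12-ps9 had -4.94, -0.879 and 6.453, with 83.2% of its 31-base words in another gene. Rps12-ps3 had 5.638, 0.182 and -4.743, with 100%. Rpl30-ps1 had 0.479, 5.057 and -5.024, with 81.4%. Gm16288 had -0.422, 3.682 and -5.69, with 52.5%. Rpl18-ps2 had -5.604, 3.734 and -1.729, with 79.9%. How the authors' counting divided reads between such copies was not tested.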

How the results depend on the processing

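Counts of genes that rose and fell stayed within 1.5 times of the main counts under every alternative run. The genes that rose numbered between 2619, without the control pair, and 3975, with no filter, and those that fell between 2606, without genes that share over 20% of words, and 3772, with upper-quartile scaling. The count that rose at least 2-fold, 1192 in the report, was 1809 with no filter, where 22833 genes were tested. DESeq2 called 2666 higher and 2660 lower. Leaving out the replicate block gave 2773 and 2640, of which 2770 and 2639 were called with it, and 35 of the 287 called named genes lost their call, among them Fkbp4, Slc25a4 and Col16a1. Across all alternatives 45 lost their call, 9 others gained one and 11 changed sign. Without the block 3 of 10 interferon genes and 4 of 25 G1 genes rose, and 3 of 19 fusion genes fell. Without genes that share over 20% of words 6 of the mitochondrially encoded genes rose. The muscle form kept the larger fold change in the same 18 pairs under each alternative that gave both values. Upper-quartile scaling shifted the median of all genes to -0.08.

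The number of genes higher at day 5 than at day 3 ran between 127 and 522 as 1 genotype was left out, and the number of genes lower at day 5 than at day 3 between 41 and 316. The signs of uncalled genes turned. Myh9 was -0.0373 with library totals, -0.0780 with upper-quartile scaling, -0.0061 without the block, -0.0053 with all 9 libraries, -0.0131 without mitochondrial and ribosomal protein genes, and between -0.128 and 0.122 as pairs were left out. Cpt1a was 0.0058 without the block and between -0.0741 and 0.0556 as pairs were left out. Rps12-ps9 was 0.0053 with all 9 libraries, and Rps12-ps3 and Rpl30-ps1 were 0.36 and 0.52 by DESeq2. As pairs were left out, Rps12-ps9 ran between -2.73 and 1.54, Rps12-ps3 between -4.64 and 5.50, Rpl30-ps1 between -2.91 and 3.18, Gm16288 between -2.25 and 0.92, Rpl18-ps2 between -2.92 and 0.13, Ptn between -0.68 and 0.98, Rybp between -0.41 and 0.88, Ccn2 between -1.42 and 0.0039, and Pgam1 between -0.479 and 0.0434. The cause was not tested. In the 100 bases before the start, the promoter shares were 4.76% for CAGCTG, 4.23% for CACCTG, 3.997% for the MEF2 letters, 2.64% for CHR, 23.8% for CCAAT, 1.68% for TTCCCGCC and 0.363% for TTTGGCGC, lower because the window is shorter.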

Other observations

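Some secreted and neuronal genes outside the lists are named here because they fell. They were chosen after their values were seen, and all were called in the fit above. The chemokines Cxcl5, Cxcl1, Ccl2, Ccl7 and Cxcl12 fell (-5.08 ± 0.31, -3.04 ± 0.55, -2.47 ± 0.21, -1.46 ± 0.11 and -1.35 ± 0.10). Ccl2, which attracts monocytes, had 6.02, 9.87 and 5.08 CPM at day 5, against 31.6, 41.1 and 44.0 CPM at day 0. Cxcl12, the ligand of Cxcr4, had 35.5, 48.0 and 34.3 CPM at day 5, against 94.0, 133 and 77.4 CPM at day 0. The day-5 libraries of both lay below those of day 0. Nefl, the light neurofilament protein, had 13.5, 9.65 and 8.95 CPM at day 5, against 282, 351 and 219.7 CPM at day 0 (-4.72 ± 0.16). Nefm, the medium one, had 6.23, 7.24 and 8.46 CPM at day 5, against 83.2, 119 and 129 CPM at day 0 (-3.90 ± 0.12). Grem1, an antagonist of bone morphogenetic proteins, had 7.95, 13.6 and 9.43 CPM at day 5, against 209, 164 and 225 CPM at day 0 (log2 fold change -4.26 ± 0.21, edgeR adjusted p = 1.1e-05). Areg, a ligand of the epidermal growth factor receptor, fell as well (-2.68 ± 0.24).

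Among non-coding transcripts Airn, an imprinted RNA antisense to Igf2r, rose (3.45 ± 0.36), with 10.3, 15.1 and 6.04 CPM at day 5, against 0.589, 1.05 and 1.11 CPM at day 0. The kit does not mark strand, so reads of the overlap cannot be told apart from those of Igf2r. The predicted genes Gm38534, Gm14635 and Gm28653 rose by 8.07 ± 0.31, 5.92 ± 0.29 and 3.44 ± 0.20. The small nucleolar RNA host genes Snhg1, Snhg5, Snhg8, Zfas1 and Gas5 fell, with values between -1.07 and -0.72, and Snhg12 was not called (-0.32 ± 0.21, edgeR adjusted p = 0.22).

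Of 484 processed pseudogenes tested 24 rose and 228 fell, with a median of -0.55. Of 1570 genes that share over 20% of their words with another gene 254 rose and 655 fell. The source of these reads, the pseudogene or its parent, cannot be told apart in the counts.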
